A study of Mus musculus with 66 samples.

Results

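The genes described here encode 7 matrix metalloproteinases (Mmp2, Mmp3, Mmp7, Mmp10, Mmp12, Mmp13 and Mmp14) and 3 of their tissue inhibitors (Timp1, Timp2 and Timp3). They were taken by symbol from the deposited transcript table, and their transcripts were summed per gene, which gave 10 of the 30452 genes with values. All 10 were found. Each level is in transcripts per 1000000 (TPM), the share of a library's RNA molecules assigned to a gene, corrected for transcript length. Sequencing depth is unknown, because the table holds no read counts.

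The samples came from wild-type C57Bl/6 mice, 6 weeks old at purchase, in the dextran sulfate sodium (DSS) colitis model, in which a detergent-like polysaccharide in the drinking water damages the gut epithelium. The protocol gave 3% DSS for 6 days from experimental day 0, and mice were dissected at day 3, 6, 9, 14 or 20. Those of day 3 were dissected before the 6 days were over. Uninjured mice at day 0 had no DSS. Mid-colon (labelled prox), rectum (dist) and anus (anal) were each taken from 4 mice at day 0 and from 3 mice at every later day, 19 samples per section. Squamous neo-epithelium of the colon, labelled meta, was taken from 3 mice at each of days 9, 14 and 20. That made 66 samples in 21 groups from 19 mice, with the sections of 1 mouse carrying the same number. Per the series' design text, the muscle layer was taken off every section before RNA was made, and the bulk samples hold all remaining cell types together.

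Matrix metalloproteinases are zinc enzymes that cut collagens, elastin, proteoglycans and many signalling proteins outside the cell, and most are secreted as inactive precursors. Tissue inhibitors of metalloproteinases bind the active enzymes and block them. In inflamed or wounded gut, the enzymes made by fibroblasts, macrophages and epithelial cells at ulcer margins clear damaged matrix and free growth factors, while the inhibitors limit that breakdown.

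Libraries detected 11268 to 13789 genes at 1 TPM or more, and 0 pairs of libraries held identical values. Sections carried the markers of their labels. The summed level of 7 squamous markers was 8959 to 25474 TPM in anus and 14800 to 32672 TPM in neo-epithelium, against 3.73 to 22.7 TPM in mid-colon and 6.50 to 992 TPM in rectum. Colonocyte markers (7 genes) summed to 9120 to 11643 TPM in uninjured rectum and to 3355 to 4125 TPM there at day 9. In anus they summed to 648 to 2093 TPM at day 0, 1341 to 3325 TPM at day 3, 20.8 to 65.9 TPM at day 6 and 188 to 732 TPM at day 20. Muscle RNA was still present: 4 skeletal muscle markers summed to 832 to 9319 TPM in anus and to 0.499 to 105 TPM in the other sections, and 4 smooth muscle markers to 152 to 2928 TPM over all sections. Its part in the differences between anus and the other sections was not tested. Whether a group had fewer cells of a type or less RNA per cell cannot be told apart in bulk samples.

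Of the 10 genes, 5 lie near each other on chromosome 9. In the build of the files (mm10, which is GRCm38), GENCODE M21 places Mmp13 at chr9:7272514-7283331, Mmp12 at chr9:7344381-7369499, Mmp3 at chr9:7445822-7455975, Mmp10 at chr9:7502352-7510240 and Mmp7 at chr9:7692090-7699585, all on the plus strand. The table holds 10 Mmp genes within that stretch of 427 kb, and the other 5 are Mmp1b, Mmp1a, Mmp8, Mmp27 and Mmp20. Only Mmp8, the neutrophil collagenase, exceeded 1.05 TPM in any of the 66 samples among those 5. It was at 0.0137 ± 0.0163 TPM (mean ± SD, n = 4) in uninjured rectum and 58.4 ± 26.7 TPM (n = 3) at day 9. Mmp1a, Mmp1b and Mmp20 stayed at 0.173 TPM or less in every sample. The remaining members are dispersed: Mmp2 at chr8:92827291-92853420 (plus strand), Mmp14 at chr14:54431612-54445364 (plus), Timp1 at chrX:20870166-20874735 (plus), Timp2 at chr11:118301069-118355740 (minus) and Timp3 at chr10:86300372-86349506 (plus).

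Promoter sequences are shown for 3 clustered genes that rose together (Mmp13, Mmp3 and Mmp10) and for Mmp7, their neighbour with another time course. Timp1 stands beside them as an inhibitor that rose with the first 3. RefSeq (GRCm38.p6) gave promoters for 9 of the 10 genes, 11 windows in all because Mmp7 and Mmp12 have a second start. Printed below are the 120 bases before each annotated start, on the plus strand. Capitals mark TGANTCA, the letters bound by AP-1 factors such as Fos and Jun (read the same on both strands), and TATAAA, the core element of many inducible promoters (searched on both strands). The motifs do not overlap in these windows. Mmp12, a clustered gene that also rose, is not printed, and the window of its first start held neither motif.
Mmp13, chr9:7272394-7272513: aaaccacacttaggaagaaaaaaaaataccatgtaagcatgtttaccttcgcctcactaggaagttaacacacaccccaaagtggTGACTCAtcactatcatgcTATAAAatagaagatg
Mmp3, chr9:7445702-7445821: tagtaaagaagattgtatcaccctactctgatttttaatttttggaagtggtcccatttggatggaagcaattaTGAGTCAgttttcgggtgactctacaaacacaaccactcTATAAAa
Mmp10, chr9:7502222-7502341: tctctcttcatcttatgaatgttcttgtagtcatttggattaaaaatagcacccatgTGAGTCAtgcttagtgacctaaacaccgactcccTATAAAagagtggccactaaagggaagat
Mmp7, chr9:7691970-7692089: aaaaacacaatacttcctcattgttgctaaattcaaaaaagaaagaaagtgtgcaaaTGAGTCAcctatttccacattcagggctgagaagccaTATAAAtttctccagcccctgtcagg
Timp1, chrX:20870046-20870165: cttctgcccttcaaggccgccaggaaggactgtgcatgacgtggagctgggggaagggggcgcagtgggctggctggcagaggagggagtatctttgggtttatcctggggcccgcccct

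TGANTCA stood in 5 of the 11 windows: those of Mmp13, Mmp3, Mmp10 and Mmp7 and the second start of Mmp12. Counted back from 1 at the base before the start, its first base was at 35 in Mmp13, 46 in Mmp3, 63 in Mmp10, 63 in Mmp7 and 44 in Mmp12. Among all 32851 RefSeq promoter windows of that length, 3.41% held it. TATAAA stood in 4 of the 11 windows, those of Mmp13, Mmp3, Mmp10 and Mmp7, and in 6.34% of all windows. A match is a description of the letters only, and Mmp7, which carries both, had a different time course from the other 3.

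In uninjured tissue the inhibitors outweighed the enzymes. In rectum at day 0, Timp3, a matrix-bound inhibitor, was highest of the set at 49.0 ± 6.53 TPM (n = 4), followed by Timp2 at 27.4 ± 2.12 TPM with no overlap between mice. Mmp2, or gelatinase A, which cuts denatured collagen and basement membrane, came next at 14.9 ± 2.98 TPM and overlapped with Mmp14, a membrane-anchored collagenase that activates it, at 11.1 ± 1.25 TPM. Timp1, the soluble inducible inhibitor, was at 2.53 ± 0.608 TPM. The other 5 enzymes averaged at most 1.09 TPM, Mmp7 being lowest at 0.0464 ± 0.0316 TPM.

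Uninjured anus already had more Mmp2, Mmp3, Mmp14, Timp1 and Timp2 than rectum. Timp2 was highest there, between 79.6 and 116 TPM (n = 4), followed by Mmp2 at 71.3 ± 4.55 and Timp3 at 56.4 ± 12.0 TPM, the last of which overlapped with Mmp2. Mmp10 was lowest at 0.132 ± 0.155 TPM. Of 7 members tested, 5 were higher in anus of the same 4 mice (limma, adjusted p under 0.05), where 60.3% of all genes were called in either direction and 25.9% were called higher. Mmp3, or stromelysin-1, a secreted enzyme that also activates other metalloproteinases, was at 3.57, 7.50, 26.1 and 27.2 TPM in anus of mice 1 to 4. In rectum of the same mice it was at 0.621, 0.232, 0.462 and 1.06 TPM. Every anal value exceeded every rectal one, and the anal values fell into a low and a high pair of mice (log2 difference 3.07 ± 0.53 SE, limma adjusted p = 0.000769). Mmp2 (2.21 ± 0.15), Timp2 (1.82 ± 0.14), Timp1 (1.76 ± 0.20) and Mmp14 (1.21 ± 0.16) were higher in anus in 4 of 4 mice. The summed level of 7 fibroblast markers was 1646 to 2356 TPM in anus and 524 to 640 TPM in rectum, and its part in the result was not tested. These differences are on the log2(TPM + 1) scale, as are all below, which understates the change of genes with low levels.

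Between rectum and mid-colon at day 0, 1 of 5 members tested was higher in rectum, where 1.79% of all genes were called and 1.52% as higher. It was Mmp2 (0.91 ± 0.17, limma adjusted p = 0.032), higher in 4 of 4 mice. Its call was lost without any 1 of mice 1 to 4 (adjusted p up to 0.24) and under TMM scaling (adjusted p = 0.0592). With the mouse as a block Timp3 was called too (0.72 ± 0.10, limma adjusted p = 0.016).

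Stromelysins and collagenase-3 had the largest rises of the set in rectum at days 6 and 9. In rectum at day 6, 9 of 9 members tested were called in a fit where 48.7% of all genes were, 8 of them higher (11.5% of all genes were) and Timp3 lower (37.2% were). At day 9, 9 of 10 were higher, in a fit that called 53.5% of all genes and 33.5% as higher. The members called higher at day 9 had log2 changes of 0.89 to 5.85, against a median of 0.13 over all 13140 genes tested. The panels of level by day show the step between days 3 and 6.

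**Figure D1:**
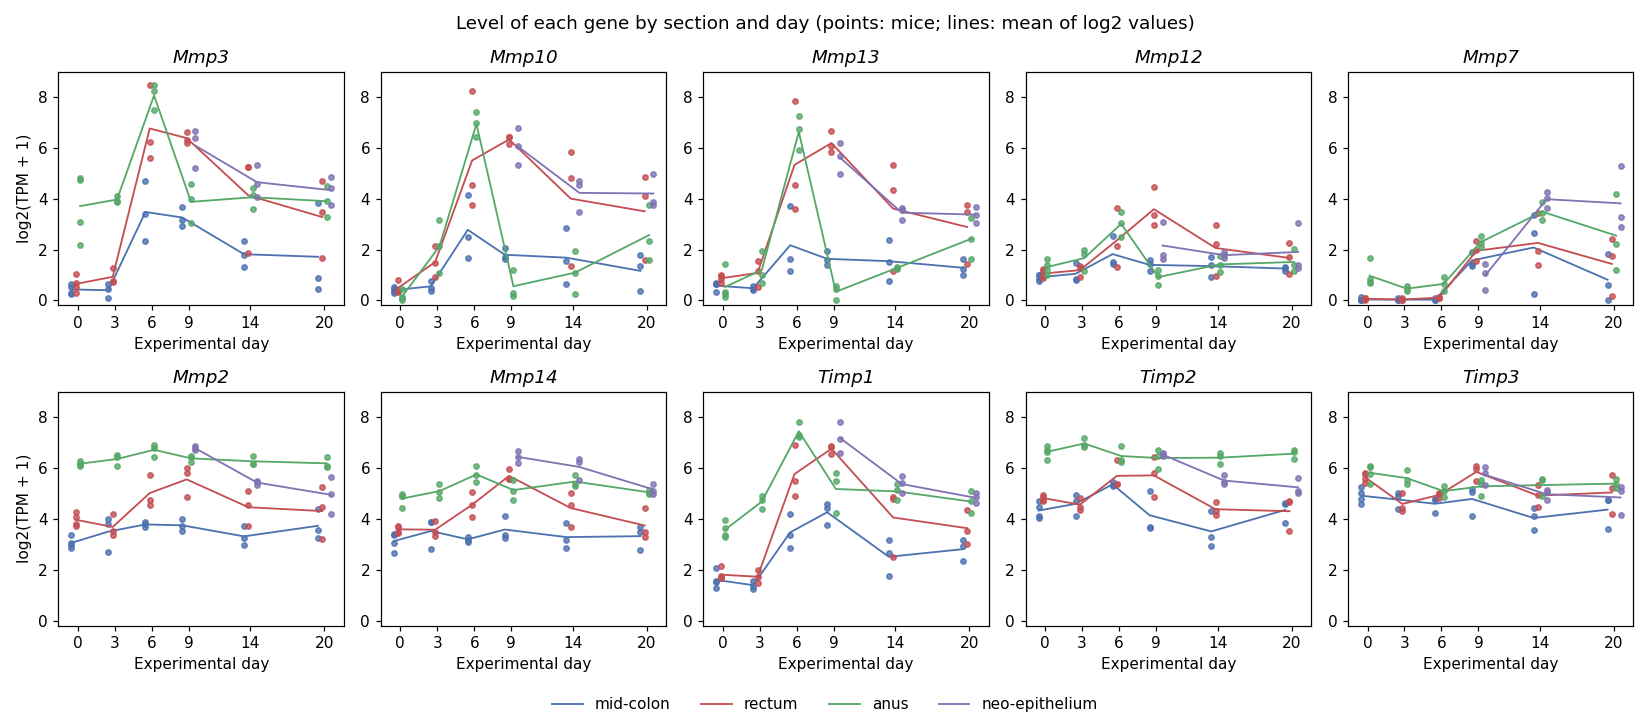
Level of each of the 10 genes as log2(TPM + 1) against experimental day, with 1 point per mouse and a line through the mean of the log2 values in each section (4 mice at day 0, 3 at later days). Mmp3, Mmp10, Mmp13 and Timp1 peak at days 6 to 9 in rectum and at day 6 in anus, Mmp7 is near 0 in mid-colon and rectum until day 9, and Timp2 and Timp3 stay within a narrower range in rectum and anus than the induced genes.

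Mmp3 in rectum was at 74.5, 47.3 and 356 TPM at day 6 in mice 8 to 10 and at 73.3, 78.6 and 98.9 TPM at day 9 in mice 11 to 13. All 6 values lay above the highest day 0 value of 1.06 TPM, and mouse 10 stood far above the other day 6 mice. The log2 change was 6.12 ± 0.58 at day 6 (limma adjusted p = 0.000258) and 5.74 ± 0.20 at day 9 (limma adjusted p = 3.23e-07).

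Mmp10, or stromelysin-2, is made by keratinocytes and gut epithelium at wound edges. In rectum it went from 0.345, 0.738, 0.341 and 0.251 TPM at day 0 to 22.3, 12.6 and 299 TPM at day 6 and to 85.4, 84.9 and 70.6 TPM at day 9. The 3 mice of day 9 lay close together, whereas mouse 10 stood far above both other mice at day 6. The log2 change at day 9 was 5.85 ± 0.16 (limma adjusted p = 9.46e-08), the largest of the 10 genes in rectum on that day.

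Mmp13, or collagenase-3, cuts fibrillar collagen. Its rectal level went from 0.927, 0.605, 0.815 and 0.975 TPM at day 0 to 22.6, 11.2 and 228 TPM at day 6 and to 56.3, 101 and 66.7 TPM at day 9. Mouse 10 was again highest at day 6, and no injured value reached down to the uninjured ones. The log2 change was 4.47 ± 0.82 at day 6 and 5.33 ± 0.20 at day 9 (limma adjusted p = 5.33e-07).

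Day 6 and day 9 could be told apart in rectum for 3 members when compared directly, a comparison added after the values had been seen. Mmp7 (1.84 ± 0.23), Mmp14 (1.14 ± 0.26) and Timp3 (0.90 ± 0.19) were higher at day 9 (limma adjusted p of 0.0111 or less). In that fit 37.9% of all genes were called and 32.1% as higher, so the share of members called was not above that of all genes. Without mouse 10, 7 members were called, among them Mmp10 (2.19 ± 0.26, limma adjusted p = 0.00189), Mmp13 (2.11 ± 0.35, adjusted p = 0.00465) and Timp1 (1.57 ± 0.23, adjusted p = 0.00335). The share of all genes called without mouse 10 is not given here, so the 7 cannot be set against it. The median of all genes tested was 0.37 in the same comparison, and with TMM scaling, which centres it on 0, Timp3 was at 0.47 and Mmp14 was no longer called (adjusted p = 0.0804). Mmp14 also lost its call without mouse 13 (0.0521).

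In mid-colon Mmp3 had the largest rise of the set at days 6 and 9. At day 6, 6 of 9 members tested were higher (14.9% of all genes were called, 4.93% as higher), and at day 9, 7 of 10 were (43.4% called, 26.5% as higher). Mmp3 went from 0.192 to 0.569 TPM in 4 mice at day 0 to 9.48, 4.08 and 25.3 TPM at day 6 and to 12.0, 6.63 and 7.95 TPM at day 9. The day 6 and day 9 values all exceeded day 0, and mouse 10, the highest in rectum, was the highest here as well. The log2 change was 3.05 ± 0.45 at day 6 and 2.83 ± 0.22 at day 9 (limma adjusted p = 1.79e-05). In the fit that shared 1 estimate of spread over all 66 samples, the day 9 calls of Mmp2 (adjusted p = 0.0831), Mmp10 (0.12), Mmp12 (0.342) and Mmp13 (0.177) were lost, which left 3. Mmp12 also lost its mid-colon call without any 1 of mice 1, 2 or 3 on both days, among others (up to 0.166), and Mmp2 without mouse 1, 2, 9 or 10 at day 6 and without mouse 12 at day 9 (up to 0.0996).

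The response of rectum exceeded that of mid-colon at day 9 for 6 members when the difference in change from day 0 was itself tested, in a fit that called 6.55% of all genes and 5.84% as higher. The difference in log2 change was 4.45 ± 0.23 for Mmp10 (limma adjusted p = 1.87e-07), 4.27 ± 0.28 for Mmp13 (2.57e-06) and 2.91 ± 0.30 for Mmp3 (0.00017). Timp1 (2.30 ± 0.31), Mmp12 (2.05 ± 0.38) and Mmp14 (1.65 ± 0.32) followed, and with the mouse as a block Timp2 was called too (1.07 ± 0.27, limma adjusted p = 0.0377). Mmp14 lost its call without mouse 13 (adjusted p = 0.0717), and Mmp3 did in the fit of all samples (0.0772).

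At day 6 the same test called 0 of 9 members, and 0% of all genes, in limma's fit without a block, with 5 members at an unadjusted p under 0.05. Since both sections came from the same mice, the fit with the mouse as a block called 4: Mmp3 (3.07 ± 0.26, limma adjusted p = 0.00117), Timp1 (2.09 ± 0.20, 0.00346), Mmp13 (2.88 ± 0.34, 0.0114) and Mmp10 (2.64 ± 0.45, 0.0422). The share of all genes called with the block is not given here, so this count cannot be set against it. At day 20 the fit without a block called 0 of 10 members (0.00756% of all genes), with 2 at an unadjusted p under 0.05. Each other setting with all mice called 0, the block included. Without mouse 10 the day 6 count was 2, and without mouse 19 the day 20 count was 2. The comparisons with day 0 share the uninjured samples of their section.

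Neutrophil and macrophage markers were also higher at day 9 than at day 0 in rectum and mid-colon. The 6 neutrophil markers summed to 0.797 to 5.89 TPM in uninjured rectum, 362 to 3557 TPM at day 6 and 11066 to 13073 TPM at day 9, with Cxcr1 listed at 0 in all 4 uninjured mice. In mid-colon they summed to 37.5 to 203 TPM at day 6 and 470 to 2217 TPM at day 9. Macrophage markers in mid-colon summed to 542.5 to 869.5 TPM at day 6 and 342.4 to 495.5 TPM at day 9. Fibroblast markers there summed to 517.7 to 578.2 TPM at day 6 and 237.1 to 330.4 TPM at day 9. On those days mid-colon Mmp3 averaged 13.0 and 8.85 TPM, Mmp10 7.92 and 2.51 TPM and Mmp13 5.18 and 2.15 TPM. Timp1 went the other way, at 10.9 and 18.7 TPM (n = 3 each), and the ranges of both days overlapped for each gene. The 8 macrophage markers summed to 216 to 295 TPM in uninjured rectum and 1928 to 2145 TPM at day 9, and the 7 fibroblast markers to 524 to 640 and 795 to 1344 TPM. Their part in the rise of the members was not tested.

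In anus the same enzymes formed a pulse that was over by day 9. At day 3, 0 of 8 members tested were called (limma; 2 at an unadjusted p under 0.05, 0 under any other setting with all mice), as were 0.044% of all genes. At day 6, 7 of 9 were called, in a fit that called 15% of all genes: 6 higher (8.64% of all genes were) and Timp3 lower (6.37% were). At day 9, 2 of 8 were called (5.09% of all genes were called, 1.46% as higher), Mmp7 and Timp1.

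Anal Mmp10 was at 0.107, 0, 0.0666 and 0.356 TPM at day 0, where mouse 2 was listed at 0. It was at 7.92, 1.12 and 3.45 TPM at day 3, at 169, 127 and 85.5 TPM at day 6, and at 0.12, 0.232 and 1.31 TPM at day 9. The day 6 values stood apart from all the others, and day 9 overlapped with day 0. The log2 change at day 6 was 6.78 ± 0.26 (limma adjusted p = 1.69e-05), and from day 6 to day 9 Mmp10 fell by 6.39 ± 0.34 (limma adjusted p = 0.000695).

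Anal Mmp13 followed the same course, from 0.187, 0.0864, 0.252 and 1.69 TPM at day 0 to 153, 105 and 59.3 TPM at day 6 and 0.0175, 0.35 and 0.481 TPM at day 9. Day 6 did not overlap with either other day. It rose by 6.11 ± 0.40 at day 6 (limma adjusted p = 0.000189) and fell by 6.30 ± 0.34 from day 6 to day 9 (limma adjusted p = 0.000695).

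Anal Mmp3 started higher, so its rise was smaller in ratio though not in level. It was at 353, 303 and 180 TPM at day 6 and at 7.28, 23.2 and 15.0 TPM at day 9, which lay within the day 0 range of 3.57 to 27.2 TPM. It rose by 4.36 ± 0.62 at day 6 (limma adjusted p = 0.00281) and fell by 4.19 ± 0.41 by day 9 (limma adjusted p = 0.0105; 0.0711 without mouse 13). At day 6 it was the highest of the 10 genes in anus, at 279 ± 89.4 TPM (n = 3), though its range overlapped with that of Timp1.

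From day 6 to day 9 in anus, 0.241% of all genes were called in either direction and 0.166% as lower. This comparison was also added after the values had been seen, so the share of members called is no independent support for their fall. The comparison called 5 members: Mmp3, Mmp10, Mmp13 and Mmp12 lower and Mmp7 higher. The calls of Mmp12 and Mmp7 were lost with a pseudocount of 0.1 (adjusted p = 0.0612 and 0.079) and without any 1 of mice 8, 9, 11, 12 or 13 (up to 0.161 for each), and Mmp12's also with TMM scaling (0.0569). Without a filter on low values Mmp3 lost its call (0.0699), and Mmp10 and Mmp13 remained called under each setting tried and without each mouse.

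Whether rectum and anus differed in the change from day 6 to day 9 was tested in a comparison also added after the values had been seen. Of 10 members, 6 had a lower change from day 6 to day 9 in anus than in rectum, where 30.6% of all genes were called and 25.8% as lower. The difference was -7.22 ± 1.2 for Mmp10 (limma adjusted p = 0.00113), -7.15 ± 1.14 for Mmp13 (0.000928) and -3.81 ± 0.86 for Mmp3 (0.00611). Mmp12, Timp1 and Mmp14 were the others, and with the mouse as a block Timp3 was called too (-0.72 ± 0.18, limma adjusted p = 0.0225), a value that was -0.09 without a block under TMM scaling. The median over all genes was -0.35, and the 6 calls held under TMM scaling, which moved that median to 0.15.

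The same held for the change from day 0 to day 9, for which 7 members were lower in anus than in rectum (19.9% of all genes were called, 15.6% as lower). The difference was -5.58 ± 0.76 for Mmp3, -5.52 ± 0.41 for Mmp13 and -5.46 ± 0.33 for Mmp10 (limma adjusted p = 5.13e-07). With the mouse as a block Timp2 was called too (-1.14 ± 0.25, limma adjusted p = 0.0126). Neutrophil markers in anus summed to 346 to 1365 TPM at day 0, 1369 to 3887 TPM at day 6 and 944 to 3142 TPM at day 9. Fibroblast markers there summed to 2145 to 3055 TPM at day 6 and 1328 to 1752 TPM at day 9. Macrophage markers there summed to 285 to 427 TPM at day 0, 803 to 1509 TPM at day 6 and 477 to 666 TPM at day 9, with no overlap. The part of any of these in the fall was not tested.

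Mmp12, or macrophage elastase, changed over a smaller range. In rectum it was at 0.857, 1.23, 0.936 and 1.34 TPM at day 0 and at 6.83, 21 and 9.21 TPM at day 9. The day 9 values were all higher, mouse 12 most of all (log2 change 2.54 ± 0.32, limma adjusted p = 0.000228). In anus it was at 7.37, 10.2 and 4.63 TPM at day 6 and at 1.02 to 2.12 TPM in uninjured mice (1.70 ± 0.28, limma adjusted p = 0.00577). Its rectal call at day 6 (1.31 ± 0.46, limma adjusted p = 0.0422) was lost without mouse 10 (0.67 ± 0.25, adjusted p = 0.0663) and without mouse 1, 2, 3, 4 or 8 (up to 0.0875).

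Mmp12's level was summed over 7 transcripts, of which a transcript that GENCODE M21 marks for nonsense-mediated decay made up 46.3% of the TPM and one with a retained intron 22.3%. The protein-coding transcripts alone averaged 0.189 ± 0.178 TPM (n = 4) in uninjured rectum and 3.88 ± 2.69 TPM (n = 3) at day 9. On these alone the rectal call at day 9 held (1.92, limma adjusted p = 0.00102), and in anus at day 6 too few samples reached 1 TPM for a test. For Mmp3 and Mmp10, 202 stretches of 31 letters were shared between their transcripts (of 1771 in Mmp3 and 1692 in Mmp10), so reads from those stretches fit both genes.

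Mmp7, or matrilysin, a small enzyme of glandular epithelium and, in the small intestine, of Paneth cells, came up later than the rest. In rectum it was listed at 0 to 0.0685 TPM at day 0, at 0 to 0.0769 TPM at day 3 and at 0.0631, 0.110 and 0.0631 TPM at day 6. At day 9 it was at 2.91, 4.01 and 1.96 TPM. Every one of these lay far above all earlier rectal values (log2 change from day 0 1.89 ± 0.19, limma adjusted p = 7.23e-05).

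Mid-colon showed the same delay for Mmp7. It was listed at 0 in 3 of 4 mice at day 0, in 2 of 3 at day 3 and in 2 of 3 at day 6, and was at 2.76, 1.70 and 1.59 TPM at day 9 (1.54 ± 0.18, limma adjusted p = 0.000121). The rise in rectum and the rise in mid-colon at day 9 were not called different (difference 0.35 ± 0.26, limma adjusted p = 0.532). At day 6 too few samples reached 1 TPM in either section for Mmp7 to be tested.

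In anus Mmp7 was present before injury, at 2.16, 0.601, 0.780 and 0.643 TPM, and at 0.902, 0.570 and 0.297 TPM at day 6. It then reached 4.75, 3.24 and 3.83 TPM at day 9 and 9.82, 8.08 and 13.5 TPM at day 14. All values of those days exceeded the uninjured ones (log2 change 2.52 ± 0.30 at day 14, limma adjusted p = 0.00772). At day 9 its change was 1.32 ± 0.29 (limma adjusted p = 0.0345), and that call was lost under TMM scaling (0.0548) and without any 1 of mice 2, 3, 4, 11, 12 or 13 (up to 0.138).

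Mmp7 reached its highest level in neo-epithelium, at 1.09, 1.73 and 0.313 TPM at day 9, 15.4, 18.4 and 11.5 TPM at day 14 and 8.79, 38.0 and 6.42 TPM at day 20. Every value of days 14 and 20 lay above every value of day 9. Mouse 18 was the highest day 20 mouse in all 4 sections, with 38.0 TPM in neo-epithelium, 17.5 in anus, 4.31 in rectum and 2.53 in mid-colon. Of the 5 Paneth markers, the defensins Defa21 and Defa24 were listed at 0 in nearly all groups, and the 5 summed to at most 30.7 TPM in any sample.

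Mmp2 and Mmp14, the partly constitutive stromal pair, moved by less. Mmp14 in rectum went from 12.4, 10.2, 12.0 and 9.88 TPM at day 0 to 22.6, 15.6 and 32.3 TPM at day 6 and 46.7, 46.1 and 61.0 TPM at day 9. The 3 days did not overlap, and the log2 change was 0.97 ± 0.22 at day 6 and 2.11 ± 0.15 at day 9 (limma adjusted p = 9.22e-06). In anus Mmp14 was at 20.6 to 30.5 TPM at day 0 and at 66.2, 43.2 and 51.8 TPM at day 6 (0.95 ± 0.20, limma adjusted p = 0.0172). That call was lost without mouse 8 or mouse 10 (adjusted p up to 0.0788).

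Mmp2 in rectum went from 12.0, 15.9, 18.6 and 12.9 TPM at day 0 to 62.9, 28.3 and 54.8 TPM at day 9. Mouse 12 had the lowest day 9 value, still above all uninjured ones (1.59 ± 0.27, limma adjusted p = 0.00121). In anus Mmp2 was at 66 to 77.1 TPM at day 0 and 85.2 to 121 TPM at day 6, ranges that did not overlap, but it was not called (0.55 ± 0.16, limma adjusted p = 0.0507). No other comparison of injured with uninjured anus called it.

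Timp1 was the inhibitor with the largest rise on the days when the stromelysins rose. In rectum it was at 2.35, 2.18, 3.43 and 2.16 TPM at day 0, 44.4, 28.5 and 120 TPM at day 6 and 94.2, 113 and 118 TPM at day 9. Mouse 10 was again the highest of day 6, and day 9 values were close together. The log2 change was 3.96 ± 0.41 at day 6 and 4.96 ± 0.16 at day 9 (limma adjusted p = 2.75e-07). At 108 ± 12.4 TPM (n = 3), Timp1 had the highest mean of the 10 genes in rectum at day 9, overlapping with Mmp3. Without mouse 12, Timp3 was called too, which made 10 of 10 members.

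Anal Timp1 rose with the day 6 pulse and came down only in part. It was at 11.4, 8.70, 9.41 and 14.7 TPM at day 0, 29.1, 25.9 and 20.0 TPM at day 3, 222, 150 and 159 TPM at day 6 and 17.6, 55.4 and 44.4 TPM at day 9. Each later day lay above day 0 without overlap, but day 3 was not called (1.12 ± 0.22, limma adjusted p = 0.268). Days 6 (3.89 ± 0.22, adjusted p = 0.000108), 9 (1.61 ± 0.37, 0.0422) and 14 (1.52 ± 0.23, 0.0131) were. The day 9 call was lost without mouse 1, 2, 3, 12 or 13 (up to 0.168), and the day 14 call without mouse 15 or 16 (up to 0.0608).

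Timp2, which both inhibits metalloproteinases and helps Mmp14 activate Mmp2, was higher in rectum at day 6, at 40.8, 40.3 and 79.6 TPM against 25.3 to 29.9 TPM (0.87 ± 0.22, limma adjusted p = 0.0131). At day 9 it was at 85.9, 28.4 and 55.7 TPM, where mouse 12 lay within the uninjured range. That call (0.89 ± 0.31, limma adjusted p = 0.0373) was lost without any 1 of mice 1, 2, 3, 4, 11 or 13 (up to 0.107). Mid-colon Timp2 was at 38.5, 43.1 and 39.0 TPM at day 6 against 15.6 to 25.1 TPM at day 0 (1.03 ± 0.18, limma adjusted p = 0.00759). In anus it was between 62.2 and 143 TPM on every day and was called in no comparison with day 0.

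Timp3 was the one member that fell early. In rectum it was at 46.1, 53.9, 54.8 and 41.1 TPM at day 0, at 19.0, 20.7 and 31.2 TPM at day 3 and at 30.7, 27.7 and 31.5 TPM at day 6. Day 3 and day 6 values were all below the uninjured ones. Timp3 fell by 1.05 ± 0.17 at day 3 (limma adjusted p = 0.00847), as the only 1 of 6 members tested that was called, where 6.62% of all genes were and 5.13% as lower. It fell by 0.69 ± 0.12 at day 6 (limma adjusted p = 0.00327), a day on which the median over all genes was -0.27. With TMM scaling that median was -0.02 and the change of Timp3 -0.39 (limma adjusted p = 0.0418), and in the fit of all 66 samples the day 6 call was lost (0.0614). Without mouse 6 or mouse 7, 2 members were called at day 3. Rectal fibroblast markers summed to 304 to 453 TPM at day 3 against 524 to 640 TPM at day 0, and their part in the fall of Timp3 was not tested.

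At day 9 rectal Timp3 was at 62.0, 44.2 and 66.7 TPM and overlapped with day 0. In anus it was at 38.4, 28.2 and 33.7 TPM at day 6 against 41.0 to 66.9 TPM at day 0 (-0.72 ± 0.21, limma adjusted p = 0.0484). That call was lost without any 1 of mice 2, 3, 4, 8, 9 or 10 (up to 0.179) and with protein-coding transcripts only (0.0505). In mid-colon no comparison called it.

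**Figure D2:**
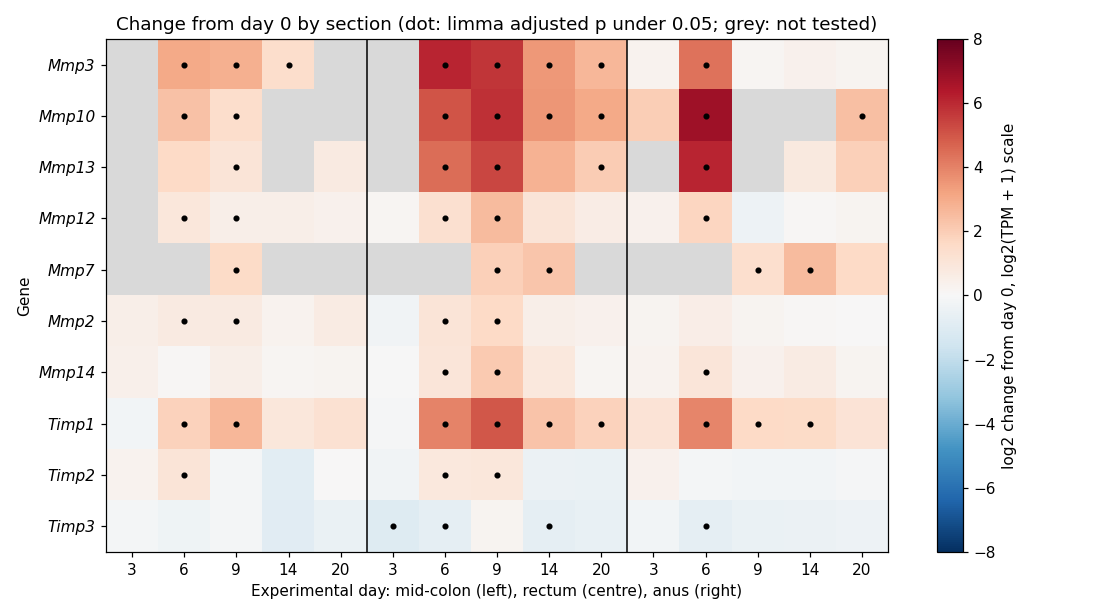
Log2 change from day 0 on the log2(TPM + 1) scale for each gene (rows) at each later day (columns) in mid-colon, rectum and anus, with a dot where the limma adjusted p was under 0.05 and grey where too few samples reached 1 TPM for a test. The changes of Mmp3, Mmp10, Mmp13 and Timp1 at days 6 and 9 in rectum and at day 6 in anus are the strongest, and Timp3 carries the only lower calls.

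In recovery some rectal levels stayed up in some mice. At day 14, 5 of 10 members were called (15.8% of all genes were): Mmp3, Mmp7, Mmp10 and Timp1 higher (6.31% of all genes were) and Timp3 lower (9.51% were). Rectal Mmp3 was at 2.68, 37.5 and 37.1 TPM, Mmp10 at 1.59, 26.9 and 56.6 TPM and Timp1 at 4.68, 26.5 and 28.5 TPM. Mouse 14 was far below mice 15 and 16 in all 3, yet above every uninjured mouse.

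The day 14 count in rectum rested on which mouse was in the fit. Without mouse 14 it was 9, with Mmp3 at 4.61 ± 0.21 (limma adjusted p = 1.34e-05) and Mmp10 at 4.83 ± 0.29 (3.24e-05). It was 0 without mouse 1, 2 or 3, 1 without mouse 4 or 16 and 3 without mouse 15. The share of all genes called in the fits without 1 mouse is not given here. Neutrophil markers in the 3 samples spanned 179 to 4605 TPM. Squamous markers in them spanned 25.0 to 992 TPM, against 12.9 to 124 TPM in uninjured rectum. The part of either in the spread was not tested. In mid-colon at day 14, 1 of 7 members was called, Mmp3 (1.39 ± 0.25, limma adjusted p = 0.0208; 4.36% of all genes were called, 2.55% as higher). The count was 7 without mouse 14, 2 without mouse 4 and 0 without mouse 1, 2, 3 or 15, and with TMM scaling Timp3 was called as well, as lower (adjusted p = 0.0455).

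At day 20, 4 of 9 members were higher in rectum (7.68% of all genes were called, 2.79% as higher). Mmp10 was at 27.8, 16.1 and 1.98 TPM (3.01 ± 0.66, limma adjusted p = 0.0378), Mmp3 at 24.9, 10.1 and 2.21 TPM (2.63 ± 0.60, adjusted p = 0.0404) and Mmp13 at 12.7, 10.1 and 1.68 TPM (2.02 ± 0.50, adjusted p = 0.0481). Timp1 was at 19.3, 10.6 and 7.15 TPM (1.83 ± 0.30, adjusted p = 0.02). Mouse 19 was lowest in each, and all values were above day 0. Squamous markers in rectum at day 20 spanned 8.01 to 577 TPM, and their part was not tested. Without mouse 19, 6 members were called, without mouse 1, 2, 3 or 18 the count was 0, and without mouse 4 or 17 it was 1.

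Compared with day 9 instead, 6 rectal members were lower at day 20 (20.8% of all genes were called, 14.8% as lower). Mmp13 fell by 3.31 ± 0.58 (limma adjusted p = 0.00937), Timp1 fell by 3.13 ± 0.32 (0.00211) and Mmp12, the least by size, fell by 1.92 ± 0.45 (0.0236). The count was 3 without mouse 13. Mmp12, Mmp10 and Mmp3 lost their calls without mouse 12 and without mouse 13, among others (up to 0.0982). In mid-colon 1 of 10 members was called, Timp1, which fell by 1.45 ± 0.30 (limma adjusted p = 0.0111; 20.6% of all genes were called, 14.5% as lower). It lost its call without mouse 12 or 13 (up to 0.0547), and the count was 2 without mouse 17 or 18. Mid-colon at day 20 had 0 of 7 members called against day 0 (limma; 1.56% of all genes), with 3 at an unadjusted p under 0.05 and at most 1 under another setting with all mice. Without mouse 19 there were 2, and without mouse 4, 1.

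At day 14 in anus, 2 of 9 members were called, Mmp7 and Timp1 (4.27% of all genes were called, 2.26% as higher), 1 without mouse 15 or 16 and 3 without mouse 4. At day 20, 1 of 10 was (1.46% of all genes were called, 1.09% as higher): Mmp10 at 2.05, 4.05 and 12.6 TPM, above every uninjured value (2.40 ± 0.46, limma adjusted p = 0.0477). It lost its call in each fit without 1 mouse except that without mouse 17 (up to 0.16). Mid-colon at day 3 had 0 of 5 members called in limma's fit, 0 at an unadjusted p under 0.05 and 0 under the other settings (0.375% of all genes).

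Neo-epithelium, sampled at days 9 to 20, had more Mmp2, Mmp14, Timp1 and Timp2 than rectum of the same 9 mice. With day as a covariate, 4 of 10 members were called, a share near that of all genes (42.9%). All 4 were higher (20.9% of all genes were). Mmp14 was higher in 9 of 9 mice (1.26 ± 0.20, limma adjusted p = 9.14e-05), as were Timp1 (0.98 ± 0.29) and Timp2 (0.96 ± 0.19), and Mmp2 was in 8 of 9 (0.95 ± 0.27). Mmp3, Mmp10 and Mmp13 were not called (0.43 ± 0.47, 0.22 ± 0.52 and -0.08 ± 0.45). Nor were Mmp7, Mmp12 and Timp3 (limma adjusted p of 0.105 or more). Fibroblast markers summed to 2088 to 3091 TPM in neo-epithelium at day 9 and 795 to 1344 TPM in rectum. At day 14 they summed to 910 to 1219 and 348 to 642 TPM. The day 20 sums overlapped, at 504 to 1021 and 306 to 929 TPM. The part of the fibroblast markers was not tested.

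Against anus of the same mice, 8 members were called, in a fit that called 59.8% of all genes: 6 higher in neo-epithelium (40.1% of all genes were) and 2 lower (19.7% were). Mmp10 (3.43 ± 0.50, limma adjusted p = 2.17e-05), Mmp13 (2.80 ± 0.48), Mmp3 (1.08 ± 0.32) and Mmp12 (0.67 ± 0.26) were higher in 9 of 9 mice. Timp1 was in 8 (0.81 ± 0.29) and Mmp14 in 7 (0.67 ± 0.17). Timp2 (-0.70 ± 0.18, higher in 2 of 9 mice) and Mmp2 (-0.56 ± 0.22, higher in 3 of 9) were lower. The difference did not hold at day 9, when Mmp2 was at 116, 103 and 109 TPM in neo-epithelium and at 85.2, 75.0 and 88.2 TPM in anus, higher in all 3 mice. Timp2 averaged 91.8 ± 3.31 and 85.3 ± 21.7 TPM on that day (n = 3 each). Fibroblast markers summed to 2088 to 3091 TPM in neo-epithelium and 1328 to 1752 TPM in anus at day 9. At day 14 they summed to 910 to 1219 and 1594 to 2122 TPM, and at day 20 to 504 to 1021 and 1614 to 2082 TPM. Their part in these differences was not tested. Under TMM scaling the calls of Mmp12 (adjusted p = 0.0855) and Timp1 (0.0671) were lost. Mmp2 lost its call with the mouse as a block (limma adjusted p = 0.058), Mmp2 and Mmp12 each without 1 of 5 mice (up to 0.0896 and 0.086), and Timp1 without mouse 12 or 13 (up to 0.0623).

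Within neo-epithelium most members fell from day 9 to day 20 while Mmp7 rose. Of 10 members, 7 were lower (16.1% of all genes were) and Mmp7 higher (10.1% were), among 26.2% of all genes called. Mmp2 was at 116, 103 and 109 TPM at day 9 and 30.8, 17.3 and 49.9 TPM at day 20. Timp1 was at 94.9, 140 and 226 TPM and then at 23.4, 28.2 and 31.2 TPM. Neither pair of ranges overlapped. Timp1 fell by 2.35 ± 0.31 (limma adjusted p = 0.0049). Mmp13, at 30.4, 50.8 and 72.2 TPM and then at 9.41, 7.34 and 12.0 TPM, fell by 2.24 ± 0.33 (limma adjusted p = 0.00625).

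Mmp7 rose by 2.85 ± 0.64 in that comparison (limma adjusted p = 0.0211), 2.12 ± 0.35 without mouse 18 (adjusted p = 0.0101), and lost its call without mouse 11, 12, 13 or 17 (up to 0.0832). Mmp2, Mmp3 and Mmp10 lost theirs without mouse 12 or 13, and Mmp13, Mmp14, Timp1 and Timp2 kept theirs in each fit without 1 mouse. The count of 8 was 4 without mouse 12 or 13 and 5 without mouse 17. Much of the change was there by day 14, in a comparison added after the values had been seen: 6 members were called (16.8% of all genes), with Mmp7 higher by 3.02 ± 0.31 (limma adjusted p = 0.0104; 7.04% of all genes were higher) and Mmp2, Mmp10, Mmp13, Timp1 and Timp2 lower (9.77% were). Without mouse 13 none was called, at adjusted p of 0.0632 or more, without mouse 12, 3 were, and without mouse 11, 8. Neutrophil markers in neo-epithelium summed to 7212 to 18817 TPM at day 9 and 497 to 5628 TPM at day 20, and fibroblast markers to 504 to 1021 TPM at day 20. Colonocyte markers there summed to 32.7 to 251.5 TPM at day 9, 427 to 2403 TPM at day 14 and 1931 to 3390 TPM at day 20. The part of any of these in the fall of most members or the rise of Mmp7 was not tested.

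Summed over the set, the enzymes overtook the inhibitors in rectum and, at day 6, in anus. In mid-colon the inhibitors stayed ahead on average at days 6 and 9 but not at day 14. The 7 Mmp genes together were at 28.9 ± 2.97 TPM in uninjured rectum and the 3 Timp genes at 78.9 ± 8.98 TPM, a ratio of 0.367 ± 0.0188 (n = 4). At day 9 they were at 354 ± 16.8 and 223 ± 32.0 TPM, a ratio of 1.62 ± 0.302 (n = 3). In mid-colon the ratio was 0.342 ± 0.0356 at day 0, 0.669 ± 0.375 at day 6 and 0.636 ± 0.0780 at day 9. It was 1.10 ± 0.587 there at day 14, from 0.426 to 1.44 between mice, and 0.713 ± 0.294 at day 20. In rectum it was 1.67 ± 0.879 at day 14 and 1.16 ± 0.535 at day 20. In anus the ratio was 0.704 ± 0.0775 at day 0, 2.27 ± 0.425 at day 6 and 0.852 ± 0.0609 at day 9. In neo-epithelium it was 1.33 ± 0.00768, 1.56 ± 0.0596 and 1.49 ± 0.355 at days 9, 14 and 20, although both sums fell. These are ratios of RNA, and no test was made of them.

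The make-up of the inhibitor sum changed as well. Timp1 made up 3.20 ± 0.538% of the 3 inhibitors' TPM in uninjured rectum, 39.9 ± 11.3% at day 6 and 49.6 ± 11.0% at day 9. In anus it made up 6.59 ± 1.28% at day 0, 58.9 ± 0.433% at day 6 and 24.6 ± 13.7% at day 9. Mid-colon went from 4.03 ± 0.799% to 30.4 ± 13.3% at day 9. The 3 anal mice of day 6 gave nearly the same share although their summed levels differed.

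**Figure D3:**
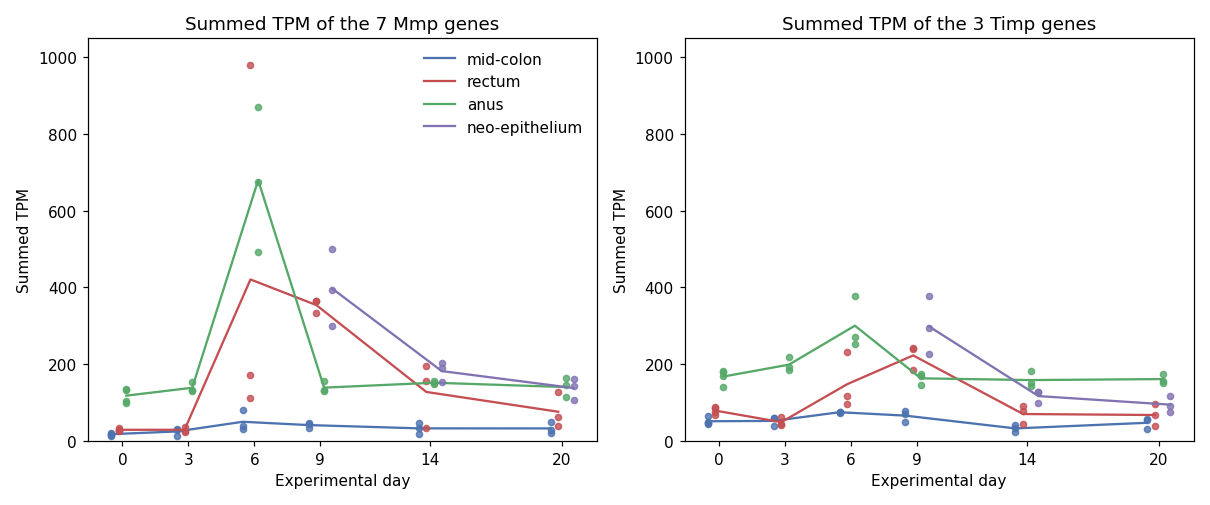
Summed TPM of the 7 Mmp genes (left) and of the 3 Timp genes (right) against experimental day, with 1 point per mouse and a line through the mean of each section. The Mmp sum of rectal mouse 10 at day 6 is the highest point, the anal sum returns near its day 0 level by day 9, and neo-epithelium comes down from day 9 to day 20.

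Plasminogen activation is a serine protease system that can activate metalloproteinases. In rectum at day 9, 6 of 6 tested genes of a list of 9 from it, chosen with earlier results known, were higher, where 33.5% of all genes were, with a median log2 change of 3.26 against 0.13 over all genes. Plaur, the urokinase receptor, was at 147 ± 78.1 TPM (n = 3) against 3.67 ± 0.715 TPM (n = 4), and Plau, urokinase itself, at 27.6 ± 5.17 against 2.98 ± 0.725 TPM (2.85 ± 0.19, limma adjusted p = 8.01e-06). The inhibitors Serpine2 (1.68 ± 0.23) and Serpinb2 (3.67 ± 0.36) and the activator Plat (4.25 ± 0.38) rose too.

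Some of these genes also rose and fell in anus. At day 6, 4 of 6 tested were higher (8.64% of all genes were), Plau, Plaur and Serpine2 among them, with a list median of 2.27 against 0.07 over all genes. Plau was at 52.9 ± 22.8 TPM at day 6 and 8.72 ± 1.55 TPM at day 9, and Serpine2 at 121 ± 30.8 and 24.8 ± 4.14 TPM (n = 3 each). From day 6 to day 9, 3 of 6 were lower (0.166% of all genes were), Plau and Serpine2 among them, and the change from day 0 to day 9 was lower in anus than in rectum for 6 of 6 (15.6% of all genes), with a median difference of -3.14 against -0.12 over all genes.

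Of 18 further metalloproteinase and inhibitor genes, 11 were tested in rectum at day 9, of which 5 were higher and 2 lower (median 0.56), a share called near that of all genes (53.5%). Mmp8 (5.78 ± 0.25) and Mmp9 (5.12 ± 0.19), collagenase-2 and gelatinase B of neutrophils, rose as well (58.4 ± 26.7 and 53.5 ± 8.67 TPM at day 9, n = 3 each), and Mmp19 (3.10 ± 0.16), Mmp25 and Mmp28 rose too. Timp4, the fourth inhibitor, was lower, at 0.603 ± 0.475 TPM against 12.8 ± 1.24 TPM (-3.14 ± 0.20, limma adjusted p = 6.63e-06), as was Mmp15, a membrane enzyme of epithelium (-1.28 ± 0.40). In anus at day 6, where 15% of all genes were called, 1 of 9 tested was higher (Mmp19) and 2 lower (Mmp15 and Timp4). Of 17 ADAM and ADAMTS genes, relatives that shed membrane proteins or cut proteoglycans, 13 were tested in rectum at day 9, with 7 higher and 2 lower (median 0.56), against 53.5% of all genes called. Adam8, a sheddase of myeloid cells, was among those higher (4.68 ± 0.17).

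The levels of several members went together over the 66 samples. Pearson's r of the log2 levels was 0.98 for Mmp10 with Mmp13, 0.94 for Mmp3 with Timp1, 0.90 for Mmp2 with Timp2 and 0.88 for Mmp2 with Mmp14. The stromal pair also went with the induced genes, at 0.85 for Mmp14 with Timp1, 0.78 for Mmp2 with Timp1, 0.75 for Mmp14 with Mmp3 and 0.72 for Mmp2 with Mmp3. Mmp7 had no r above 0.48 with another member, and Timp3 none above 0.67. Sections and days are shared by the samples, so these values describe the set of groups as much as the mice.

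**Figure D4:**
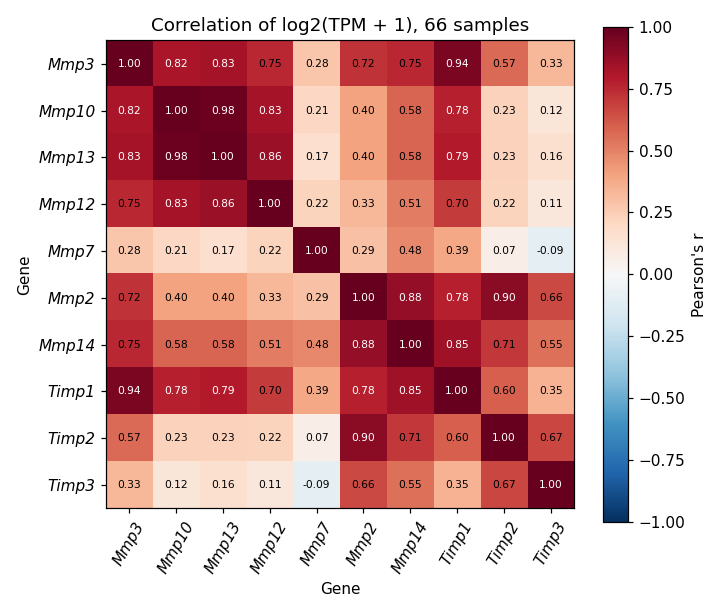
Pearson's r between the log2(TPM + 1) levels of each pair of the 10 genes over 66 samples, on a scale from -1 to 1. Mmp3, Mmp10, Mmp12, Mmp13 and Timp1 have values of 0.70 to 0.98 among themselves and Mmp2, Mmp14 and Timp2 of 0.71 to 0.90, with values as high between them (Mmp14 with Timp1, 0.85), and Mmp7 has none above 0.48.

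Outside the set, the most similar genes among 13592 candidates by the same r (66 samples) were as follows. For Mmp10 and Mmp13 the first was Il1rl1, the interleukin-33 receptor (0.946 and 0.953), followed by the neutrophil attractant Cxcl1 (0.89 and 0.905). For Mmp3 it was Plau (0.913), followed by the growth factor Ereg (0.904). For Mmp14 they were Tgfbi (0.962), an extracellular matrix protein, and Tgfb1 (0.95). Timp1 was most like Pdpn (0.96), a surface glycoprotein of fibroblasts and lymphatic vessels, which stands under 2 gene IDs with the same values. Mmp2 was closest to Olfml3 (0.964), Timp2 to Ctsk (0.956), Mmp12 to F10 (0.832), Mmp7 to Tnfrsf11b (0.831), the decoy receptor osteoprotegerin, and Timp3 to Pde8a (0.79).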

How the data were processed

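RNA was sequenced from 66 bulk samples of 19 mice. Per the submitters' processing notes, CASAVA and kallisto were used with build mm10, and replicates stand in separate columns of the deposited table. The deposited values are TPM, a normalized signal without read counts, which leaves sequencing depth unknown, and limma was used on log2 values rather than a count test. The table's 126860 rows held 37344 without values and 1318 repeats of a transcript, which were dropped; each sample then summed to 1000000. Transcripts were summed per gene (30452 genes), and 0.563 to 2.83% of the TPM of a sample lay on transcripts with no gene ID.

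A gene entered a test if it reached 1 TPM in a number of samples equal to the size of the smaller group, and tests were made with limma-trend (limma 3.58.1, R 4.3.3) on log2(TPM + 1). Adjusted p-values are Benjamini-Hochberg over all genes tested, and a gene was called at an adjusted p under 0.05. Each of 26 comparisons used its own groups only, and 4 were added after the values had been seen. Interactions tested whether a change differed between sections. Sections were paired by mouse, since the number names the animal: the correlation of the residuals of a mouse's sections averaged 0.0474 to 0.257, and fits with the mouse as a block were alternatives. The other alternatives were a pseudocount of 0.1, no filter on low values, TMM factors computed on TPM, 1 fit of all samples, each mouse left out and, chosen after the values had been seen, protein-coding transcripts only. The fitting code was tested on simulated data. Named genes are the 10 members, 3 gene lists and, for each member, the 3 genes with the highest r; the members, lists and markers were chosen with earlier results of these data known. The values of 1 gene of the plasminogen activation list are not reported here. Summaries and plots were made with Python 3.11.15. Nothing says how RNA of a section was divided, so p-values measure the spread between mice sampled once per section.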

Additional observations from a re-analysis of the deposited data

Results flagged for a closer look

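In 5 of the 30 groups of 4 uninjured mice, 1 per gene and section, the highest or lowest mouse stood apart from the other 3 by Dixon's 95% criterion, which chance meets in about 1 in 20 groups. They were Mmp7 in anus (highest, 2.16 TPM) and in mid-colon (highest, 0.0981 TPM, the others being listed at 0), Mmp13 in anus (highest, 1.69 TPM), Mmp14 in anus (lowest, 20.6 TPM) and Timp1 in rectum (highest, 3.43 TPM). With the other 3 at 0, Mmp7 in mid-colon meets the criterion at any value, so it says nothing beyond that 1 mouse had a value above 0.

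A change from day 0, or from day 6 to day 9, differed between sections by limma's interaction test in 19 of 49 member results. At day 9 it was larger in rectum than in mid-colon by 2.91 for Mmp3, 4.45 for Mmp10, 2.05 for Mmp12, 4.27 for Mmp13, 1.65 for Mmp14 and 2.30 for Timp1 on the log2 scale. The anal minus the rectal change at day 9 was -1.38 for Mmp2, -5.58 for Mmp3, -5.46 for Mmp10, -2.93 for Mmp12, -5.52 for Mmp13, -1.77 for Mmp14 and -3.35 for Timp1. The anal minus the rectal change from day 6 to day 9 was -3.81 for Mmp3, -7.22 for Mmp10, -3.32 for Mmp12, -7.15 for Mmp13, -1.75 for Mmp14 and -3.27 for Timp1.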

How the results depend on the processing

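Of the 120 calls of single members, 0 changed direction under any alternative, and 117 held with a pseudocount of 0.1, 113 with TMM factors, 103 in 1 fit of all samples and 90 without a filter on low values. With the mouse as a replicate block 36 of 37 held, the exception being Mmp2 in neo-epithelium against anus, and of 811 results of calls with 1 mouse left out 637 held. The number of members called moved by over 1.5 times as follows, and the cause was not tested. The share of all genes called is given for the main fits only, so counts under the alternatives are not set against it. Without a filter it was 0 at day 14 and from day 9 to day 20 in mid-colon, 1 at day 14 and 0 at day 20 in rectum, 3 from day 9 to day 20 in rectum, 0 at days 9 and 20 in anus, 0 for rectum against mid-colon at day 0 and 2 from day 6 to day 9 in anus. With TMM factors it was 2 at day 14 and 1 at day 20 in mid-colon, 1 at day 9 in anus and 0 for rectum against mid-colon. In 1 fit of all samples it was 3, 0 and 1 at days 9, 14 and 20 in mid-colon, 1 and 3 at days 9 and 20 in anus and 0 for rectum against mid-colon. With a pseudocount of 0.1 it was 3 from day 6 to day 9 in anus. With the mouse as a replicate block it was 2 for rectum against mid-colon and 4 for the difference between their day 6 changes. With 1 mouse left out it ranged from 0 to 7 and from 0 to 2 at days 14 and 20 in mid-colon, from 1 to 2, 0 to 9 and 0 to 6 at days 3, 14 and 20 in rectum, from 0 to 1, 1 to 3 and 0 to 1 at days 9, 14 and 20 in anus, and was 0 for rectum against mid-colon. From day 9 to day 20 it ranged from 4 to 8 in neo-epithelium, 3 to 5 in rectum and 0 to 2 in mid-colon, and from day 9 to day 14 in neo-epithelium from 0 to 8. From day 6 to day 9 it ranged from 2 to 5 in anus and 2 to 7 in rectum, and for the difference between rectum and mid-colon from 0 to 2 at days 6 and 20. With 3 or 4 mice a group and no read counts, low levels such as those of Mmp7 before day 9 have no known counting error. TMM factors moved the median log2 change of all genes by over 0.1 in 13 comparisons, among them rectum from day 6 to day 9 (0.37 to near 0) and the difference between anus and rectum over those days (-0.35 to 0.15).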
